A study of Homo sapiens with 18 samples.

Results

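Chromosome 19 carries a large share of the human C2H2 zinc finger genes, and the transcripts of those named *ZNF* with a number were followed here over 6 conditions in 2 sarcoma cell lines. The members were the protein-coding genes of chromosome 19 with a symbol made of ZNF and digits, 240 of the 57500 genes counted. The rule uses no measured value, but the family was taken up with earlier results of these data known. ES8 is a Ewing sarcoma line and Rh30 is an alveolar rhabdomyosarcoma line, and both carried dCas9-KRAB, the repressor used for CRISPR interference. Each line was sequenced with the control guide sgCTL, with sgDNAJC17, which represses the endogenous *DNAJC17*, and with sgDNAJC17 in cells that also carried 3xFLAG-DNAJC17-dRRM, a DNAJC17 without its RNA recognition motif, called ΔRRM below. Each of these 6 groups had 3 poly-A libraries (A, B and C), prepared 72 h into puromycin selection, so there were 18 libraries in all. No library combined ΔRRM with sgCTL, so effects of the ΔRRM allele or its stable population and effects of sgDNAJC17 in the presence of ΔRRM cannot be told apart. The study's methods state that cells were plated in triplicate. Neither they nor the labels say whether A, B and C were independent experiments, and the p-values then measure only the spread between these libraries.

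A C2H2 finger is a short fold held by a zinc ion, and arrays of such fingers read DNA in successive steps of bases. Many of these proteins pair the array with a KRAB domain, which binds the corepressor TRIM28 and through it the histone methyltransferase SETDB1, and many of them silence transposable elements. The genes multiplied by tandem duplication, which left them in clusters along chromosome 19 and with closely alike sequences. DNAJC17 is a nuclear J-domain protein, a partner of HSP70 chaperones, that is known for a role in pre-mRNA splicing.

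The repeated array is visible in the transcripts themselves. Adjacent fingers are joined by a conserved linker, and the 3 linker stretches found in the most members are shown because they illustrate how alike the genes are at the level of reads. They were taken from GENCODE transcripts.

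Linker in 43 members: catactggagagaaaccttac
Linker in 41 members: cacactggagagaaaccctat
Linker in 38 members: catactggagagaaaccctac

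The first of these stretches was also present in 34 genes that are not members, and 202 of the 240 members held at least 1 of 256 distinct linker stretches of 21 bases. The core of a KRAB domain was sought in the translated transcripts as aspartate and valine, 7 residues, glutamate and then tryptophan or leucine, and 199 members matched. KRAB domains with other residues at these places, as *ZNF473* and *ZNF266* are known to have, are missed by this pattern. The members had a median of 12 fingers, with a range from 1 to 36. In 51 members at least 10% of the transcript was shared with another gene, either as identical 75-base stretches or as exons overlapping on the same strand, and the counts of those genes are uncertain in that respect. Among members named below, shared stretches made up 19.9% of *ZNF579* and 16.1% of *ZNF180*, and exons of another gene on the same strand covered 20.2% of *ZNF358* and 17.4% of *ZNF700*. Exons on the other strand covered 19.1% of *ZNF227*.

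Ordered along the chromosome and separated wherever more than 500 kb lay between neighbours, the members fell into 10 clusters with 228 genes and left 12 genes outside them (GRCh38). Clusters 1 to 3 lay on the short arm, at chr19:2819874-2944971 with 5 genes, chr19:8509678-9793180 with 13 and chr19:11483427-12640098 with 25. Cluster 4 lay next to the centromere at chr19:19668796-24129961, and all 37 of its genes matched the KRAB core. On the long arm, cluster 5 was at chr19:34677639-34964049 with 5 genes, cluster 6 at chr19:36182060-37817300 with 24 and cluster 7 at chr19:43525497-44500524 with 23. Cluster 8 was at chr19:51571298-53580269 with 39 genes, cluster 9 at chr19:55476332-56671783 with 16 and cluster 10 at chr19:57191500-58481230 with 41. The KRAB core was found in 38 of the 39 genes of cluster 8, in 36 of the 41 of cluster 10 and in 19 of the 23 of cluster 7, but in 5 of the 16 of cluster 9. The median GC content of the transcripts was lowest in cluster 4, at 37.2%, and highest in cluster 9, at 58.7%.

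The clusters also differed in a short stretch of their promoters. Promoters from 250 bases before to 50 bases after the start site were given by RefSeq (GRCh38.p14) for 210 members. The letters CCGGAAG, which contain the core bound by ETS factors, were present on either strand in 93 of them (44.3%). Of all 35116 promoters of the same length, 10.3% held these letters. The sets were not matched for CG pairs, which these letters contain, with a median of 20 in the members' promoters and 14 in all promoters. The share with the letters was 72.4% of 29 promoters in cluster 4, 62.5% of 32 in cluster 8 and 65.8% of 38 in cluster 10. It was 8.33% of 24 in cluster 3 and 0 of 5 in cluster 1. In cluster 4 all 21 promoters with a match held it as CTTCCGG, the reverse complement, in the direction of the gene, and in cluster 8 all 20 held it as CCGGAAG. In the following 30-base windows, chosen to show these shared surroundings, the match is in capitals, and each is read 5′ to 3′ in the direction of its gene.

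*ZNF430*, cluster 4, plus strand, chr19:21020622-21020651: cggacagggcggCTTCCGGgtttggcgggg
*ZNF91*, cluster 4, minus strand, chr19:23395478-23395507: cggacagggcggCTTCCGGgatgtggctgg
*ZNF845*, cluster 8, plus strand, chr19:53333741-53333770: attcgcgcaaacCCGGAAGcggatcgcatg
*ZNF765*, cluster 8, plus strand, chr19:53395141-53395170: cttcgcgcagacCCGGAAGcggacggcgtg
*ZNF805*, cluster 10, plus strand, chr19:57240583-57240612: cttggggcgggaCTTCCGGcatttggatgg
*ZNF550*, cluster 10, minus strand, chr19:57559842-57559871: acaggggcgggaCTTCCGGcctcgctggcg

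A match is a description of the sequence and not a bound site. Another 4 motifs were searched on both strands. AAGATGGCG, known for YY1, was in 3.33% of the members' promoters and 1.75% of all promoters. GCATGCGC, known for NRF1, was in 3.33% and 3.05%. CTCGCGAG, known for BANP, was in 0.952% and 1.02%. ACTACAATT, known for ZNF143, was in 1.43% and 0.336%, and the promoter of *ZNF317* held it.

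*ZNF317*, cluster 2, plus strand, chr19:9140306-9140335: caaacttcaaaACTACAATTcccagcatcc

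Most members were transcribed at low levels. Over the 6 groups the members' median level was 1.17 RPKM (reads scaled to exon length and library size), against 1.59 RPKM for all 19583 protein-coding genes. There were 94 members above 1 RPKM in every group, 13 above 10 RPKM in any group and 19 below 0.1 RPKM in every group. The highest levels per length were those of *ZNF428* at 26.1 RPKM, *ZNF358* at 23.4 RPKM, *ZNF146* at 19.5 RPKM and *ZNF787* at 18.5 RPKM, and none of these 4 genes matched the KRAB core. The exons of *ZNF428* overlapped a gene on the other strand by 27.6%, and since the counting is not stated to have used strand, reads of the pair cannot be told apart. Among the clusters, the median level in sgCTL was highest in cluster 9, at 4.03 RPKM in ES8 and 3.96 RPKM in Rh30, and lowest in cluster 3, at 0.320 and 0.280 RPKM. There were 16 members with too few reads to be tested in any comparison, with at most 9 reads in any library, and 7 of them were in cluster 4 (*ZNF208*, *ZNF676*, *ZNF729*, *ZNF98*, *ZNF99*, *ZNF723* and *ZNF728*). *ZNF729* had 0 reads in all 18 libraries.

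The libraries held 35342393 to 48245989 counted reads. *DNAJC17* was at 12 ± 0.70 CPM (counts scaled to library size with the trimmed mean of M values, TMM) in ES8 sgCTL and 1.69 ± 0.23 CPM in ES8 sgDNAJC17, and at 11.5 ± 0.58 and 2.48 ± 0.26 CPM in Rh30 (SD, n = 3 each). With ΔRRM it was at 300.2 ± 15 CPM in ES8 and 356 ± 17 CPM in Rh30, where reads of the allele and of the endogenous gene could not be separated. The 5 ES8 markers summed to between 418 and 435 CPM in ES8 sgCTL and to at most 0.117 CPM in Rh30 sgCTL, and the 5 Rh30 markers to between 2471 and 2536 CPM in Rh30 sgCTL and to at most 8.19 CPM in ES8 sgCTL. Of the 5 Rh30 markers, *TFAP2B* went against its list and was higher in ES8. In such bulk samples fewer cells of a type and less RNA per cell cannot be told apart.

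Knockdown of *DNAJC17* in ES8 was accompanied by higher transcript levels of many members, in shares that differed by cluster. The summed level of the 240 members was 2114, 2111 and 2131 CPM with sgCTL and 2522, 2638 and 2670 CPM with sgDNAJC17, so that the groups did not overlap. Of the 218 members tested, 65 were higher and 1 was lower at an adjusted p under 0.05 (edgeR quasi-likelihood test, Benjamini-Hochberg adjustment over all genes), against 13.6% of all genes tested that were higher and 13.8% that were lower. The members' median log2 fold change was 0.16, and that of all genes −0.02. The 212 other *ZNF* genes tested, which lie on other chromosomes, gave 68 higher, 7 lower and a median of 0.18, and 812 other protein-coding genes of chromosome 19 gave 166 higher, 82 lower and a median of 0.05. Higher members were found in each cluster, with 17 of 39 tested in cluster 10, 10 of 23 in cluster 7 and 12 of 35 in cluster 8. In cluster 6 they were 4 of 22 (18.2%), in cluster 3 they were 3 of 22 (13.6%) and in cluster 4 they were 1 of 30 (3.33%). These 3 shares were near or below the 13.6% of all genes. The low counts in clusters 4 and 6 depended on the scaling and on 1 library. After correction for GC content and length, 10 of 30 members were higher in cluster 4 and 10 of 22 in cluster 6. Without library A of sgDNAJC17 they were 12 of 30 and 13 of 22. Cluster 3 had 4 of 22 after the correction and 5 of 22 without that library. Cluster medians ran from 0.06 in cluster 5 to 0.31 in clusters 7 and 10.

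**Figure D1:**
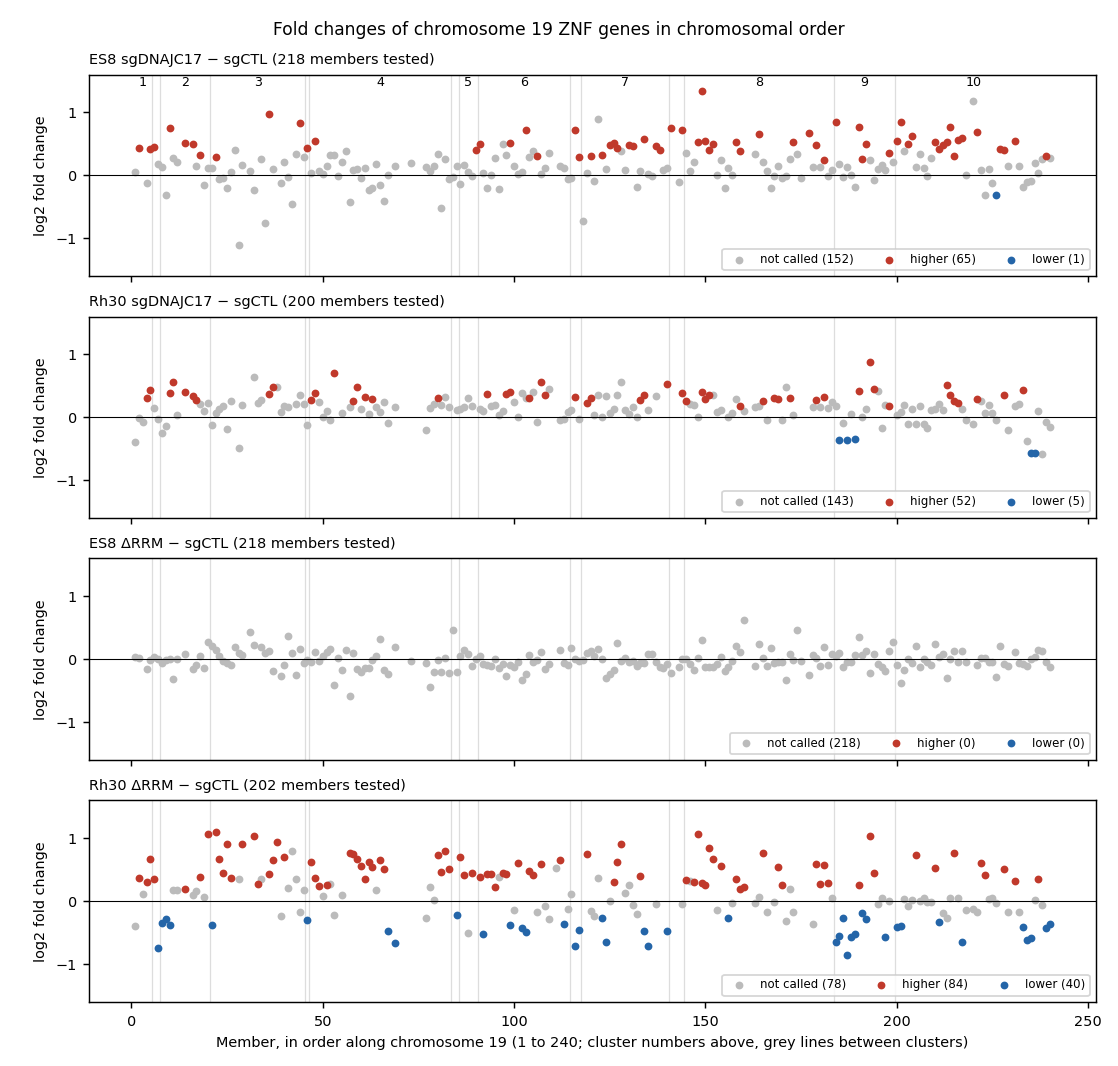
Fitted log2 fold change (vertical axis) of each tested member against its rank along chromosome 19 (horizontal axis), in 4 comparisons; red points were higher and blue points lower at an adjusted p under 0.05, and grey points were not called. In ES8 knockdown the 65 red points are spread over all clusters, in ES8 ΔRRM against sgCTL none of the 218 members is coloured, and in Rh30 ΔRRM against sgCTL the 40 blue points are densest around cluster 9.

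Among the members that rose in ES8, the largest change among those with a mean count of at least 100 was that of *ZNF350* (ENSG00000256683, chr19:51964343-51986856), a KRAB member with 8 fingers that is known as a partner of BRCA1. *ZNF350* was at 3.39, 3.00 and 3.23 CPM with sgCTL and at 7.32, 8.41 and 8.90 CPM with sgDNAJC17. All 3 knockdown libraries were above all controls, and the log2 fold change was 1.33 ± 0.11 (SE; edgeR adjusted p = 0.000149). *ZNF136* (ENSG00000196646, chr19:12163064-12189881), a KRAB member of cluster 3 with 13 fingers, was at 5.84, 5.26 and 6.54 CPM with sgCTL and at 10.9, 11.9 and 12.5 CPM with sgDNAJC17. Its log2 fold change was 0.98 ± 0.11 (adjusted p = 0.000368). *ZNF317* (ENSG00000130803, chr19:9140380-9163424), whose promoter window is printed above, was at 53.6, 51.2 and 51.8 CPM with sgCTL and at 88.3, 89.8 and 89.1 CPM with sgDNAJC17, a log2 fold change of 0.75 ± 0.06. These 3 genes were in different clusters and at different levels, and in each of them the groups did not overlap.

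*ZNF628* of cluster 9 has 16 fingers and did not match the KRAB core. It was at 18.8, 19.7 and 16.9 CPM with sgCTL and at 40.7, 31.9 and 28.6 CPM with sgDNAJC17 (log2 fold change 0.85 ± 0.13, adjusted p = 0.00149). *ZNF473*, which lies outside the clusters and is known for a role in the processing of histone pre-mRNA with the U7 particle, was at 36.9, 37.4 and 39.2 CPM with sgCTL and at 63.2, 61.9 and 64.9 CPM with sgDNAJC17. Its log2 fold change was 0.72 ± 0.06. *ZNF574*, also outside the clusters, rose from 59.7, 61.8 and 58.8 CPM to 123, 89.9 and 90.3 CPM (0.73 ± 0.11), with library A well above the other two. *ZNF805* and *ZNF134* of cluster 10 rose by log2 fold changes of 0.84 ± 0.12 and 0.56 ± 0.07, *ZNF227* of cluster 7 by 0.58 ± 0.09 and *ZNF568* of cluster 6, whose mouse counterpart silences a placental *Igf2* transcript, by 0.72 ± 0.09. Identical stretches shared with other genes made up 13.5% of the *ZNF805* transcript and 32.4% of that of *ZNF568*. The member that fell, *ZNF417* of cluster 10, was at 6.40, 7.0 and 6.97 CPM with sgCTL and at 5.87, 5.63 and 5.30 CPM with sgDNAJC17 (log2 fold change −0.30 ± 0.10, adjusted p = 0.0461). It shared 29.3% of its transcript with other genes, and its call was lost in 11 of the 15 alternatives run, over which its log2 fold change ran from −0.35 to −0.26.

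**Figure D2:**
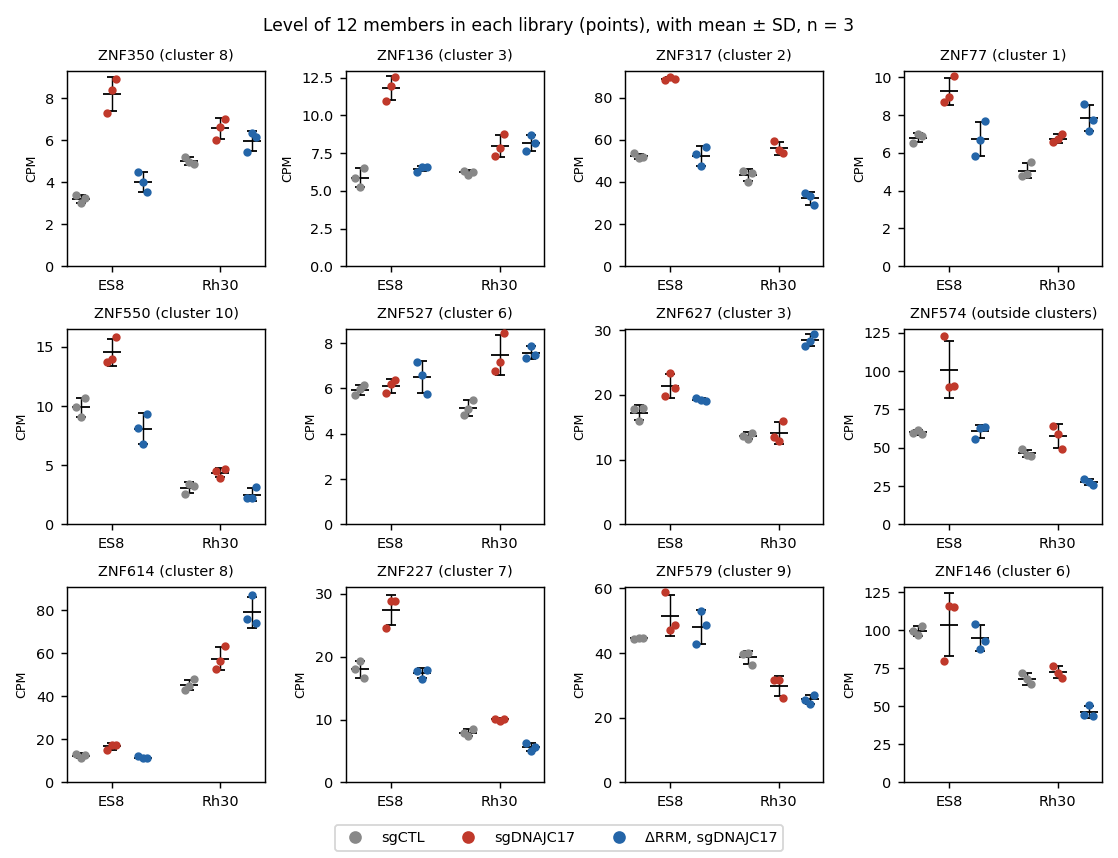
Level in CPM (vertical axes, from 0) of 12 members in each of the 18 libraries (points), with the mean and SD of each group (n = 3), by line and group. *ZNF350* rises from between 3.00 and 3.39 CPM to between 7.32 and 8.90 CPM on knockdown in ES8, and *ZNF627* is at 27.5 CPM or more in the Rh30 libraries with ΔRRM and at 16 CPM or less in the other Rh30 libraries.

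Of the 25 named members called in ES8 knockdown, 15 kept their call under every alternative run and each time 1 library was left out, among them all the risen members given above. Library A of ES8 sgDNAJC17 stood apart from B and C. Against the mean of the controls, the median log2 deviation of cluster 4 was −0.24 in A, 0.18 in B and 0.26 in C, while that of cluster 10 was 0.35, 0.25 and 0.26. Without library A, 105 members were higher and 6 were lower. Without sgCTL A, B or C, 35, 43 and 39 members were higher, and without sgDNAJC17 B or C, 45 and 46. The count of lower members was 0 without sgCTL A, sgCTL B or sgDNAJC17 B, 1 without sgCTL C and 2 without sgDNAJC17 C. With the GC content and length of the transcripts corrected for, 102 were higher and 6 were lower.

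In the ES8 knockdown, 51 of 180 tested members that matched the KRAB core were higher, with a median log2 fold change of 0.16, and 14 of 38 that did not were higher, with a median of 0.18. Members at or above 45% GC were called higher in 29 of 61 cases, and those below in 36 of 157. Among other protein-coding genes the corresponding shares were 16.9% of 8547 and 9.46% of 5114. The letters CCGGAAG were in 37.7% of the promoters of 61 members that rose, a share below that of all members.

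**Figure D3:**
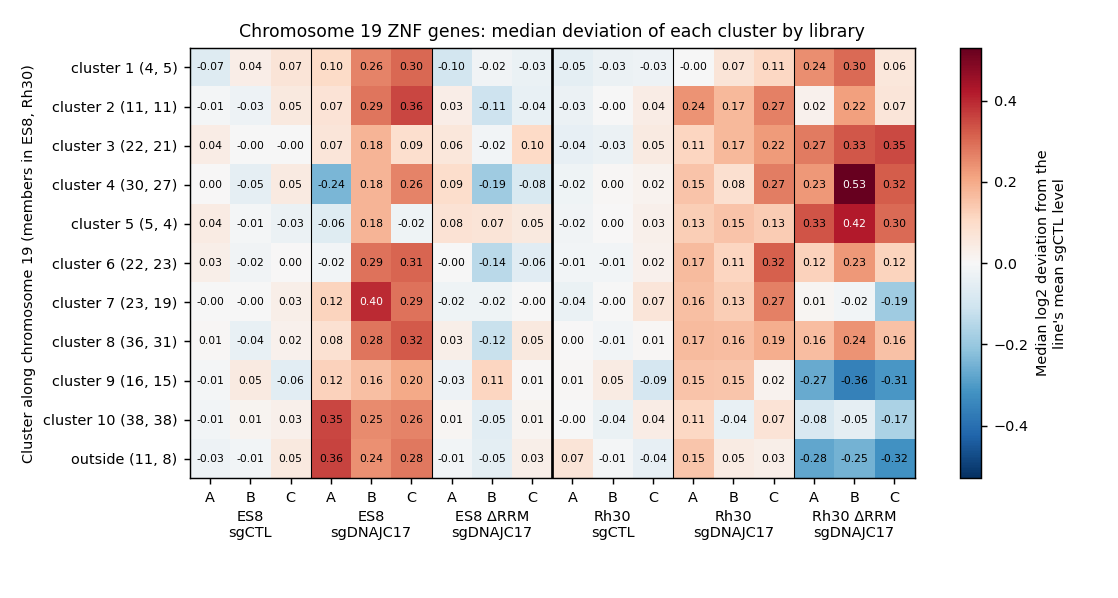
Median log2 deviation from the line's mean sgCTL level (colour and number) of the members of each cluster (rows, with the number of members in ES8 and in Rh30) in each of the 18 libraries (columns). Cluster 4 is at −0.24 in library A of ES8 sgDNAJC17 and at 0.18 and 0.26 in B and C, the 3 ES8 ΔRRM libraries lie between −0.19 and 0.11, and in Rh30 ΔRRM cluster 9 is at −0.27 to −0.36 while cluster 4 is at 0.23 to 0.53.

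In Rh30 the knockdown was also accompanied by higher levels of members. Among those under 45% GC, the share called higher was no greater than in other protein-coding genes of like GC content, given below. The median change over all tested members was much like that in ES8, while that of the members called higher was 0.35 in Rh30 and 0.50 in ES8 among members tested in both lines. The summed level was 2156, 2143 and 2167 CPM with sgCTL and 2397, 2339 and 2425 CPM with sgDNAJC17, again without overlap. Of 200 members tested, 52 were higher and 5 were lower, against 16.1% and 16.2% of all genes tested, and the median log2 fold change was 0.17 (all genes 0.00). The 202 other *ZNF* genes tested had 40 higher, 19 lower and a median of 0.05, and 718 other protein-coding genes of chromosome 19 had 76 higher, 217 lower and a median of −0.13. Higher members were 11 of 31 in cluster 8, 8 of 27 in cluster 4 and 6 of 22 in cluster 6. They were 5 of 11 in cluster 2, 5 of 19 in cluster 7, 4 of 15 in cluster 9 and 2 of 5 in cluster 1. The shares in cluster 10 (7 of 38, 18.4%), cluster 3 (2 of 20, 10%) and cluster 5 (0 of 4) were near or below that of all genes. All 5 lower members were in clusters 9 and 10. A positive fold change was found in 80.5% of all tested members and in 50.5% of all genes. It was found in 67.5% of non-member protein-coding genes under 45% GC. In cluster 7 all 19 members tested had one, in cluster 5 all 4 and in cluster 8 28 of 31. After correction for GC content and length, 4 of 27 members were called higher in cluster 4, 8 of 15 in cluster 9 and 10 of 31 in cluster 8.

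*ZNF699*, a KRAB member of cluster 2 with 14 fingers, had the largest rise in Rh30 among members with a mean count of at least 100. It was at 6.89, 7.55 and 6.74 CPM with sgCTL and at 10.4, 9.43 and 11.1 CPM with sgDNAJC17 (log2 fold change 0.56 ± 0.10, adjusted p = 0.00104). *ZNF527* of cluster 6 was at 4.82, 5.08 and 5.50 CPM and then at 6.78, 7.18 and 8.45 CPM (0.55 ± 0.12, adjusted p = 0.00303). Both kept their call under every alternative run. *ZNF180* of cluster 7 rose by 0.54 ± 0.17 (adjusted p = 0.0295), and its call was lost without sgCTL A (0.46), without sgCTL C (0.49), without sgDNAJC17 B (0.33) and with the GC and length correction (0.44). *ZNF614* and *ZNF28* of cluster 8 rose by 0.36 ± 0.08 and 0.31 ± 0.07, *ZNF430* of cluster 4 by 0.48 ± 0.10 and *ZNF581* of cluster 9 by 0.41 ± 0.07.

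The members that fell with knockdown in Rh30 included 3 of cluster 9 with GC-rich transcripts, none of which matched the KRAB core. *ZNF579* was at 39.8, 39.9 and 36.3 CPM with sgCTL and at 31.5, 31.7 and 26.2 CPM with sgDNAJC17, a log2 fold change of −0.36 ± 0.08 (adjusted p = 0.00403) that kept its call in every alternative. *ZNF865* was at 31.8, 28.0 and 25.3 CPM and then at 25.8, 20.6 and 19 CPM, and the groups overlapped (−0.36 ± 0.11, adjusted p = 0.0191). The call of *ZNF865* was lost without sgCTL A (−0.27), without sgDNAJC17 B (−0.32), without sgDNAJC17 C (−0.27) and with the GC and length correction (−0.14). *ZNF580* fell by 0.35 on the log2 scale, and its call was lost without sgCTL B (−0.27). The exons of *ZNF580* and *ZNF581* overlap on the same strand, by 15.1% of *ZNF580* and 23.4% of *ZNF581*, and *ZNF580* fell where *ZNF581* rose.

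Of 27 named members called in the Rh30 knockdown, 14 kept their call each time a library was left out. Counts of higher members were 29, 31 and 38 without sgCTL A, B or C, and 67, 33 and 30 without sgDNAJC17 A, B or C. Counts of lower members were 2 without sgCTL A, 2 without sgDNAJC17 B and 3 without sgDNAJC17 C. Scaling by library totals alone gave 30 higher and 6 lower members. Genes of another cell type also rose in Rh30. The summed level of 11 listed epithelial genes was 1.20 to 1.62 CPM with sgCTL, 13.4 to 19.2 CPM with sgDNAJC17 and 14.4 to 16.7 CPM with ΔRRM. *CLDN7* and *RAB25* were at 0 in all sgCTL libraries. The 5 genes that could be tested were all called higher on knockdown. Of these, *CDH1* and *TFF1* had at most 2 and 1 reads in any sgCTL library and *KRT19* at most 7. They passed the filter through sgDNAJC17, so the count leans on the filter and no fold is given. In ES8 none of the 3 that could be tested was called, and the summed level was 34.3 to 44.6 CPM over all ES8 libraries. Their part in the results for Rh30 was not tested.

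GC content moved with the Rh30 knockdown as well. Non-member protein-coding genes under 45% GC were higher in 26.8% and lower in 7.6% of 4776 cases, with a median log2 fold change of 0.10. Members under 45% GC were higher in 38 (25.9%) and lower in 0 of 147 cases, with a median of 0.19. Their share called higher was thus no greater than that of the non-members. At 45% GC or more, non-members were higher in 12.2% and lower in 26.5% of 7521 cases, with a median of −0.09, and members were higher in 14 and lower in 5 of 53, with a median of 0.13. After correction for GC content and length 51 members were higher and 3 lower, and their median was 0.12.

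The ES8 and Rh30 knockdowns share no libraries, so their calls can be set side by side. Of the 196 members tested in both, 25 were higher in both lines, which is 41.7% of the 60 higher in ES8 and 48.1% of the 52 higher in Rh30. Over all 13841 genes tested in both, 854 were higher in both lines, which is 40.8% of the 2091 higher in ES8 and 36.7% of the 2329 higher in Rh30. A further 35 were higher in ES8 and not called in Rh30, 27 were higher in Rh30 and not called in ES8, 6 were lower in 1 line, 103 were called in neither and 0 were called in opposite directions, where 1.27% of all genes were. The fold changes of the 196 members had a Pearson correlation of 0.27 and a Spearman correlation of 0.26 across genes, given as a description, since the members share sequence and clusters and are not independent replicates. Of the 25, 6 were in cluster 8 (*ZNF350*, *ZNF615*, *ZNF614*, *ZNF880*, *ZNF845* and *ZNF761*) and 6 in cluster 10 (*ZNF550*, *ZNF416*, *ZNF530*, *ZNF134*, *ZNF776* and *ZNF256*). Cluster 3 held 1 of them (*ZNF136*), as did cluster 4 (*ZNF14*), cluster 6 (*ZNF850*) and cluster 1 (*ZNF77*), and cluster 5 held 0.

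**Figure D4:**
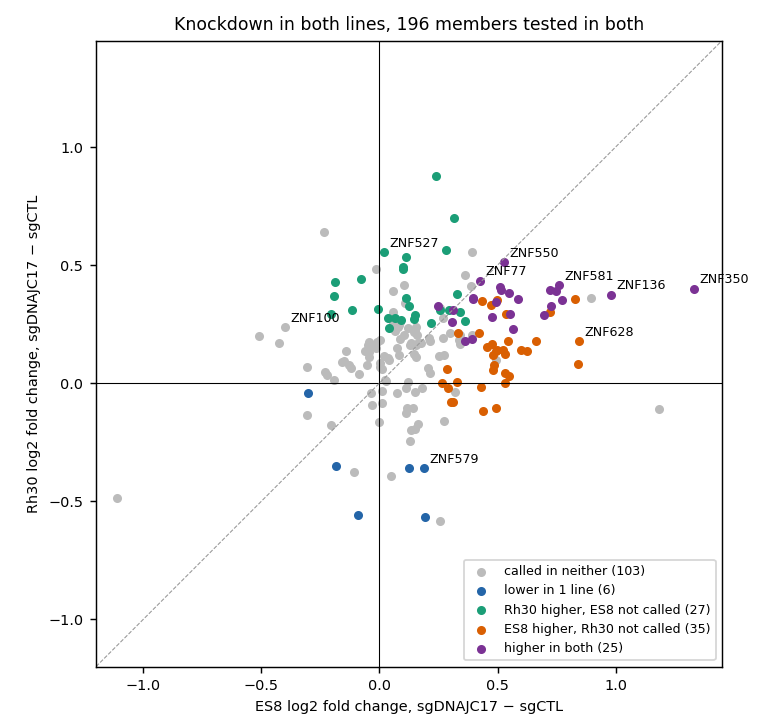
Log2 fold change on knockdown in Rh30 (vertical axis) against that in ES8 (horizontal axis) for the 196 members tested in both lines, coloured by call, with the line of equal change dashed. The 25 purple points were higher in both lines, and *ZNF350* is farthest to the right of them, at 1.33 in ES8 and 0.40 in Rh30.

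*ZNF350* was higher in both lines, at 5.22, 4.98 and 4.86 CPM in Rh30 sgCTL and 6.02, 6.63 and 7.04 CPM in Rh30 sgDNAJC17 (0.40 ± 0.11, adjusted p = 0.0134), although the Rh30 call was lost without sgCTL C (0.37). *ZNF317* was at 45.3, 40.0 and 44.5 CPM and then 59.6, 55.2 and 53.6 CPM in Rh30 (0.39 ± 0.07, adjusted p = 0.00101). *ZNF473* rose by 0.39 ± 0.06 and *ZNF266* of cluster 2 by 0.40 ± 0.09 in Rh30, and *ZNF266* by 0.51 ± 0.10 in ES8. *ZNF317*, *ZNF473*, *ZNF266*, *ZNF574* and *ZNF581* kept their calls in both lines under every alternative run. *ZNF77* of cluster 1 rose by 0.42 ± 0.10 in ES8, a call lost without sgCTL A (0.39), and by 0.43 ± 0.11 in Rh30. *ZNF550* of cluster 10, with the promoter window given above, rose by 0.53 ± 0.10 in ES8 and by 0.51 ± 0.14 in Rh30, the latter lost without sgCTL A (0.40) and without sgDNAJC17 C (0.45).

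Whether the knockdown effect differed between lines was asked with an interaction test. In this test, which asks whether the log2 fold change in Rh30 differs from that in ES8, 5 of 223 members (2.24%) had a higher value in Rh30 and 14 (6.28%) a lower one. Of all genes tested, 5.23% and 4.55% did. Against all genes, the members' share was thus below the background for higher values and somewhat above it for lower values. The split was 2 and 17 with scaling by library totals and 5 and 27 with the GC and length correction. Under 45% GC, 12.2% of non-member protein-coding genes had a higher value and 1.23% a lower one, and 3.09% and 3.70% of 162 members did. At 45% GC or more the shares were 3.14% and 7.97% of non-members, and 0% and 13.1% of 61 members. *ZNF350* differed by −0.91 ± 0.16 (Rh30 minus ES8, adjusted p = 0.00175) and *ZNF579* by −0.53 ± 0.13 (adjusted p = 0.0145), and both kept their call in every alternative. *ZNF805* was called in ES8 and not in Rh30, and its difference was −0.74 ± 0.19 (adjusted p = 0.0155). In the other direction *ZNF100* of cluster 4 differed by 0.66 ± 0.18 (adjusted p = 0.0217). It was called in neither knockdown, and its log2 fold change in Rh30 was 0.24 ± 0.09 (edgeR adjusted p = 0.0687). With 1 library left out, the count of members higher in Rh30 was 1, 2 and 1 without ES8 sgCTL A, B or C, 0, 2 and 3 without Rh30 sgCTL A, B or C, and 2 and 1 without Rh30 sgDNAJC17 B or C. The count of lower members was 6, 6 and 8 without ES8 sgCTL A, B or C, 9 without ES8 sgDNAJC17 C, 8 without Rh30 sgCTL C, and 5 and 8 without Rh30 sgDNAJC17 B or C. The call of *ZNF100* was lost without ES8 sgCTL A (0.67), ES8 sgCTL C (0.65), Rh30 sgCTL A (0.56) or Rh30 sgDNAJC17 C (0.58).

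In ES8 cells that carried ΔRRM, the summed level of the members was near that of the controls. The summed level was 2132, 2065 and 2130 CPM, against 2111 to 2131 CPM with sgCTL. Of 218 members tested against sgCTL, 0 were higher and 0 were lower (edgeR), against 0.093% and 0.0814% of all genes tested. There were 14 members at an unadjusted p under 0.05, and DESeq2 called 0 in each direction. The median log2 fold change was −0.02. A count of 0 at this number of libraries does not show that levels were equal, and 1 member was called higher when ΔRRM A was left out.

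Against sgDNAJC17 alone, 0 of 219 members were higher and 45 were lower in ES8 with ΔRRM, where 7.35% and 7.36% of all genes tested were called, and the median log2 fold change was −0.19. *ZNF350* was at 4.48, 4.01 and 3.52 CPM with ΔRRM, below all knockdown libraries and above all controls, and the log2 fold change against knockdown was −1.02 ± 0.14 (adjusted p = 0.00123). *ZNF805* was at 4.83, 1.90 and 3.95 CPM, with B lowest, and its fold change was −1.21 ± 0.25 (adjusted p = 0.00817). *ZNF317* was at 53.4, 47.4 and 56.7 CPM (−0.74 ± 0.09), *ZNF473* at 37.3, 36.5 and 40.1 CPM (−0.72 ± 0.09) and *ZNF568* at 6.48, 5.77 and 6.46 CPM (−0.95 ± 0.12). All 5 kept these calls in every alternative. By cluster, 16 of 39 members tested in cluster 10 were lower, 8 of 36 in cluster 8, 1 of 30 in cluster 4 and 0 of 5 in cluster 5. After correction for GC content and length the lower members were 20 of 39 in cluster 10, 16 of 36 in cluster 8 and 9 of 30 in cluster 4, and without library A of sgDNAJC17 they were 13 of 40, 13 of 36 and 7 of 30.

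The 65 members chosen as higher in ES8 knockdown had a median log2 fold change of 0.50 there, 0.00 with ΔRRM against sgCTL and −0.47 with ΔRRM against knockdown, where 65 of 65 were negative and 39 called lower. These comparisons share the libraries on which the 65 were chosen, and the values are given as a description. The count of 45 lower members became 66, 21 and 20 without sgDNAJC17 A, B or C, and 35, 23 and 25 without ΔRRM A, B or C. With the GC and length correction 2 were higher and 91 lower.

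In Rh30 cells with ΔRRM, many members were called against sgCTL, and they moved in both directions by cluster. The summed level was 2229, 2336 and 2206 CPM. This was above the 2143 to 2167 CPM with sgCTL and below the 2339 to 2425 CPM with sgDNAJC17. As a share of all counts, without TMM, the members made up 0.183% to 0.199%, below the 0.204% to 0.210% with sgCTL. Of 202 members tested against sgCTL, 84 were higher and 40 were lower, against 33.8% and 35% of all genes tested, with a median log2 fold change of 0.16 (all genes −0.01). The direction of this median depended on the scaling. With library totals alone 41 were higher and 72 lower, with a median of −0.07 beside −0.25 for all genes. Cluster medians were 0.43 in clusters 3 and 5, 0.38 in cluster 6, 0.36 in cluster 4, 0.31 in cluster 1 and 0.26 in cluster 8, but −0.27 in cluster 9 and −0.26 outside the clusters. In cluster 4, 17 of 27 members were higher and 2 lower, and in cluster 9, 3 of 15 were higher and 9 lower. Clusters 7 and 10 had medians of −0.04 and −0.02, with 5 higher and 5 lower of 19 in cluster 7 and 8 higher and 9 lower of 38 in cluster 10.

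GC content moved with these changes. Non-member protein-coding genes under 45% GC were higher in 53.2% of 4797 cases, with a median of 0.26, and those at 45% or more were lower in 52.3% of 7516 cases, with a median of −0.28. Members under 45% GC were higher in 69 and lower in 19 of 149 cases (median 0.24), and those at 45% or more were higher in 15 and lower in 21 of 53 (median −0.15). After correction for GC content and length 61 members were higher and 44 lower. The cluster medians then were 0.25 in cluster 3, 0.22 in cluster 5, 0.15 in cluster 4 and 0.14 in cluster 6, while cluster 9 was at 0.01, cluster 7 at −0.20 and cluster 10 at −0.10.

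**Figure D5:**
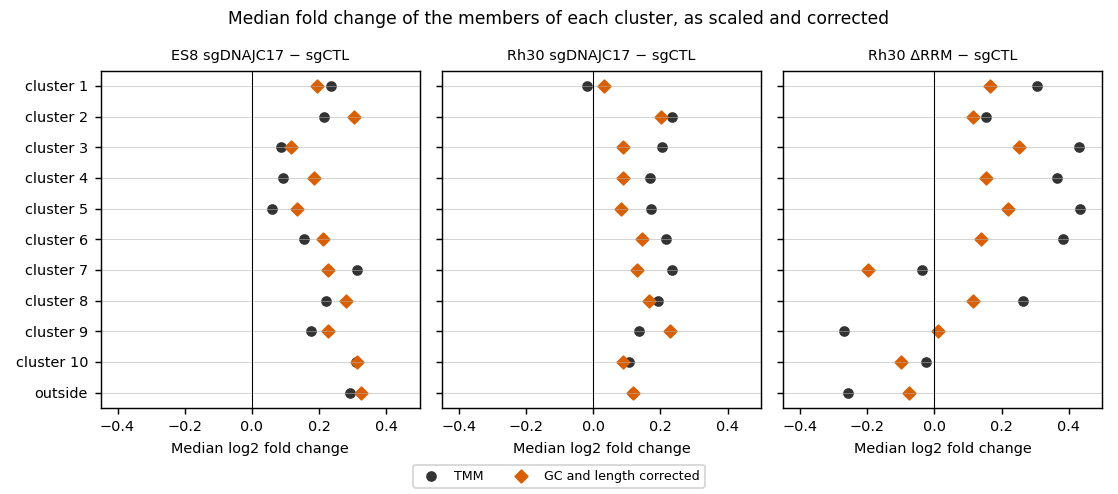
Median log2 fold change (horizontal axes) of the tested members of each cluster (rows) in 3 comparisons, with TMM scaling (circles) and after correction for GC content and length (diamonds). In Rh30 ΔRRM against sgCTL cluster 9 moves from −0.27 to 0.01 and cluster 4 from 0.36 to 0.15, while in ES8 knockdown all 11 rows stay above 0.

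The largest rises in Rh30 with ΔRRM among members with a mean count of at least 100 were those of *ZNF627* and *ZNF613*. *ZNF627*, a KRAB member of cluster 3, was at 13.7, 13.2 and 14.2 CPM with sgCTL, 13.5, 12.8 and 16 CPM with sgDNAJC17 and 27.5, 28.4 and 29.4 CPM with ΔRRM. The ΔRRM libraries lay above all the others, and the log2 fold change against sgCTL was 1.09 ± 0.08 (adjusted p = 6.01e-19). *ZNF613* of cluster 8 was at 2.86, 2.90 and 2.68 CPM with sgCTL, 2.68, 2.75 and 2.93 CPM with sgDNAJC17 and 5.58, 5.83 and 5.84 CPM with ΔRRM (1.07 ± 0.14, adjusted p = 3.64e-10). Neither was called on knockdown alone in Rh30. *ZNF614*, also in cluster 8, rose from 43.1, 44.9 and 47.9 CPM to 75.9, 87.1 and 74.1 CPM (0.84 ± 0.07), and *ZNF700* of cluster 3 rose by 0.90 ± 0.11.

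The members with the largest falls with ΔRRM in Rh30, among those with a mean count of at least 100, were *ZNF865*, *ZNF358* and *ZNF574*, none of which matched the KRAB core. *ZNF865* was at 15.3, 14.2 and 16.7 CPM (−0.85 ± 0.08 against sgCTL, adjusted p = 8.17e-14). *ZNF358*, outside the clusters, was at 49.4, 44.2 and 43.9 CPM with sgCTL and 28.3, 25.3 and 27 CPM with ΔRRM (−0.74 ± 0.07), and *ZNF574* at 49, 45.5 and 44.6 CPM and 29.5, 27.8 and 25.7 CPM (−0.71 ± 0.07). *ZNF146* of cluster 6, a protein made almost only of fingers, went from 72.0, 67.6 and 64.5 CPM to 44, 50.7 and 43.7 CPM (−0.52 ± 0.07). *ZNF574* and *ZNF317* had risen with knockdown in Rh30 and were below the control level with ΔRRM, *ZNF317* at 34.8, 33.2 and 28.9 CPM (−0.38 ± 0.07). Of the 168 tested members that matched the KRAB core, 76 were higher and 21 lower, and of the 34 that did not, 8 were higher and 19 lower. The KRAB core and GC content were not separated in this split. Cluster 9, with a median GC content of 58.7%, held the core in 5 of its 16 genes. The share lower was 55.9% of members without the core and 52.3% of non-member protein-coding genes at 45% GC or more. Of 35 named members called, 27 kept their call each time a library was left out. The summed level of the epithelial list, given above, was also higher here than with sgCTL, and its part was not tested.

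Set against sgDNAJC17 alone, 39 of 201 members were higher and 52 lower in Rh30 with ΔRRM, where 29.4% and 30.5% of all genes tested were called, and the median log2 fold change was −0.01. With library totals alone the split was 20 higher and 80 lower, with a median of −0.17 for the members and −0.17 for all genes. In cluster 4, 11 of 27 were higher and 3 lower, and in cluster 9, 0 of 15 were higher and 9 lower. Non-member protein-coding genes under 45% GC were higher in 42.8% and lower in 22% of cases, and those at 45% or more in 22.1% and 42.7%. After correction for GC content and length, 7 were higher and 4 lower in cluster 4, and 0 and 8 in cluster 9. *ZNF613* and *ZNF627* rose by 1.06 ± 0.15 and 1.02 ± 0.10, and *ZNF574* and *ZNF180* fell by 1.05 and 1.02 on the log2 scale. The 52 members chosen as higher in Rh30 knockdown had a median of 0.35 there, 0.32 with ΔRRM against sgCTL and −0.01 with ΔRRM against knockdown, where 11 were higher and 18 lower, again as a description on shared libraries. With the GC and length correction these medians were 0.28, 0.15 and −0.13, and against knockdown 8 were higher and 23 lower.

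The control lines were compared to give the members' levels before knockdown. Of 223 members tested, 77 were higher and 100 lower in Rh30 sgCTL than in ES8 sgCTL, against 42% and 45.5% of all genes tested, and the median log2 difference was −0.11. The members' shares were therefore not above those of genes in general. With library totals alone the split was 59 and 120. Cluster 8 had the highest median, 0.46, with 24 of 36 members higher in Rh30, and cluster 5 the lowest, −0.62. Some members were read almost only in 1 line and passed the filter through that line, so no fold is given for them. *ZNF556* of cluster 1 had 883, 869 and 828 reads in Rh30 sgCTL and 3, 1 and 0 in ES8 sgCTL. *ZNF844* of cluster 3 had 357, 418 and 378 reads and 2, 1 and 2, although 44.7% of its transcript was shared with other genes. *ZNF792* of cluster 5 had 285, 280 and 302 reads in ES8 sgCTL and 0, 0 and 1 in Rh30 sgCTL. *ZNF347* and *ZNF677*, both in cluster 8, had 188 to 262 reads in each ES8 sgCTL library and 0 or 1 in each Rh30 sgCTL library. *ZNF677* rose with knockdown in ES8, from 4.93, 4.0 and 4.39 CPM to 6.34, 7.64 and 7.64 CPM (0.68 ± 0.12, adjusted p = 0.00329). *ZNF614* was at 13.4, 11.3 and 12.9 CPM in ES8 sgCTL and 43.1, 44.9 and 47.9 CPM in Rh30 sgCTL (1.83 ± 0.07).

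The corepressors through which KRAB proteins act were taken from a list of 25 genes, all of which were tested in every comparison, and their counts are given beside the shares of all genes called. In ES8 knockdown 2 were higher (*CBX1* and *SUMO2*), 1 was lower (*DNMT1*, the maintenance DNA methyltransferase) and the median log2 fold change was −0.08, where 13.6% and 13.8% of all genes were called. *TRIM28* changed by −0.19 ± 0.09 in ES8 without passing the test (adjusted p = 0.124), and fell by 0.33 ± 0.07 on the log2 scale in Rh30 (adjusted p = 0.00355). In Rh30 knockdown 2 were higher (*CBX3* and *SUMO2*) and 6 lower (*TRIM28*, *CHD3*, *CHD4*, *DNMT1*, *UHRF1* and *EHMT2*), where 16.1% and 16.2% of all genes were called. With ΔRRM against sgCTL, 0 of 25 were called in ES8, and 9 were higher and 16 lower in Rh30, with *TRIM28* at −0.36 ± 0.06 and *SETDB1* at −0.31 ± 0.07. Of all genes, 0.093% and 0.0814% were called in that comparison in ES8 and 33.8% and 35% in Rh30. *SETDB1* was not called in either knockdown, at 0.06 ± 0.06 in ES8 and 0.05 ± 0.06 in Rh30. Against knockdown alone, ΔRRM gave 1 higher and 1 lower in ES8 and 8 higher and 15 lower in Rh30, where 7.35% and 7.36% of all genes were called in ES8 and 29.4% and 30.5% in Rh30. Between the control lines 5 were higher and 17 lower in Rh30 (42% and 45.5% of all genes), and in the interaction test 0 were called in each direction (edgeR). Beside *TRIM28*, *ZNF274* of cluster 10, a member picked outside the rule for its known recruitment of SETDB1 to zinc finger genes, was at 17.6, 18.7 and 19.4 CPM in ES8 sgCTL and 22.5, 20.6 and 19.6 CPM in ES8 sgDNAJC17 and was not called (0.15 ± 0.09, adjusted p = 0.230).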

How the data were processed

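RNA was sequenced from 18 poly-A libraries of ES8 and Rh30 cells in 6 groups of 3. The authors deposited raw read counts per Ensembl gene. The submitters' processing notes name Trimmomatic 0.36, STAR 2.5.2b and featureCounts of Subread 1.5.2 with GRCh38, while the study's methods name another build; of the 240 members, 185 started within 1 kb of their GRCh38 start. The strand and multiple-mapping settings are not given in the sources used here. Library totals were 35342393 to 48245989, and low-count members have wide errors at this depth.

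The members, lists and clusters were chosen with earlier results of these data known. The division at 45% GC, the 10% sequence-sharing limit, the 5 promoter motifs, the printed windows, the members drawn and the KRAB pattern (widened from tryptophan alone to tryptophan or leucine at its end) were chosen after values were seen. Genes passing filterByExpr were tested with edgeR 4.0.16 (R 4.3.3) by the quasi-likelihood F test with TMM scaling, on the libraries compared, with Benjamini-Hochberg adjustment over all genes tested and a threshold of 0.05. In all, 8 comparisons were made: knockdown, ΔRRM against sgCTL and ΔRRM against knockdown in each line, the control lines, and the interaction of line and knockdown. The scripts were tested on simulated data.

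Members were named by rule: up to 3 with the largest fold change in each direction and comparison among those called with a mean count of at least 100, up to 6 called alike in both knockdowns, the member with the highest RPKM and those with the smallest p in each cluster, and the 3 with the highest RPKM, 47 in all. RPKM were computed from the counts and exon lengths. GC content, shared 75-base stretches, fingers and KRAB cores came from GENCODE v44 transcripts and promoters from RefSeq. For the GC and length correction, lowess fits (span 0.3) of log values on each property were subtracted library by library. Alternatives were DESeq2 1.42.0, DESeq2 size factors, library totals, other filters, all libraries in 1 fit, a replicate block, the GC and length correction, stricter thresholds, each library left out, and, added after seeing the data, only members without shared sequence.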

Additional observations from a re-analysis of the deposited data

Results flagged for a closer look

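For 11 named members the effect of knockdown differed between Rh30 and ES8 in the interaction test (edgeR, adjusted over all genes), and values are log2 differences, Rh30 minus ES8. Lower in Rh30 were *ZNF350* (−0.91, adjusted p = 0.00175), *ZNF805* (−0.74, 0.0155), *ZNF837* (−0.73, 0.0454), *ZNF628* (−0.65, 0.0172), *ZNF136* (−0.58, 0.0199), *ZNF579* (−0.53, 0.0145), *ZNF317* (−0.33, 0.0319) and *ZNF473* (−0.30, 0.048). Higher in Rh30 were *ZNF100* (0.66, adjusted p = 0.0217), which was called in neither knockdown, *ZNF566* (0.59, 0.0436) and *ZNF527* (0.56, 0.0298). The calls of *ZNF350* and *ZNF579* were kept under every alternative run. With each of the 12 libraries left out in turn, *ZNF805* lost its call 0 times, *ZNF136* and *ZNF628* each lost it 2 times, *ZNF100* 4 times, *ZNF317* and *ZNF527* each 7 times, *ZNF566* 8 times, and *ZNF473* and *ZNF837* each 10 times.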

How the results depend on the processing

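Counts are of members called higher and lower. At an adjusted p under 0.01 there were 32 and 0 in ES8 knockdown, 19 and 1 in Rh30 knockdown, 17 lower in ES8 ΔRRM against knockdown, 25 higher in Rh30 ΔRRM against knockdown, and 0 and 1 in the interaction. Past a fold of 2 there were 1 and 0 in ES8 knockdown, 0 and 0 in Rh30 knockdown, 5 and 0 in Rh30 ΔRRM against sgCTL, 3 lower in ES8 and 3 and 2 in Rh30 ΔRRM against knockdown, 33 and 43 between control lines, and 0 and 1 in the interaction. The GC and length correction gave 102 and 6 in ES8 knockdown, 3 lower in Rh30 knockdown, 2 and 91 in ES8 ΔRRM against knockdown and 27 lower in the interaction, and with the replicate block as well 3 lower in ES8 knockdown, 78 lower in ES8 ΔRRM against knockdown and 28 lower in the interaction. Library totals gave 3 lower in ES8 knockdown, 30 higher in Rh30 knockdown, 41 and 72 in Rh30 ΔRRM against sgCTL, 20 and 80 against knockdown, and 2 higher in the interaction. One fit of all libraries gave 0 lower in ES8 knockdown, 32 higher in Rh30 knockdown, 76 lower in ES8 ΔRRM against knockdown and 2 higher in the interaction. Without a filter there were 2 lower in ES8 knockdown, 1 and 1 in ES8 ΔRRM against sgCTL, 1 higher against knockdown and 3 higher in the interaction. DESeq2 gave 3 lower in Rh30 knockdown and 22 lower in the interaction, and its size factors 0 lower in ES8 knockdown. Without members that share sequence, an alternative added after seeing the data, 0 were lower in ES8 and 2 in Rh30 knockdown. The cause of these shifts was not tested.

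With 1 library left out, higher and lower counts ran from 35 to 105 and from 0 to 6 in ES8 knockdown, from 29 to 67 and from 2 to 7 in Rh30 knockdown, from 0 to 1 higher in ES8 ΔRRM against sgCTL, from 71 to 85 and from 33 to 37 in Rh30 ΔRRM against sgCTL, from 0 to 1 and from 20 to 66 in ES8 ΔRRM against knockdown, from 28 to 44 and from 45 to 49 in Rh30 ΔRRM against knockdown, from 73 to 78 and from 92 to 99 between control lines, and from 0 to 7 and from 5 to 16 in the interaction. The libraries behind the shifts in the knockdowns, in ES8 ΔRRM and in the interaction are named with those results.

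Some signs reversed. Between control lines the GC and length correction gave 0.44 for *ZNF628*, 0.31 for *ZNF579*, 0.49 for *ZNF865* and 0.44 for *ZNF358*, each also with the block, and library totals gave −0.0038 for *ZNF787*. In Rh30 ΔRRM against sgCTL, library totals gave −0.0081 for *ZNF528* and −0.033 for *ZNF266*, and the correction gave −0.057 for *ZNF14* (−0.046 with the block) and 0.22 for *ZNF787* (0.22 with the block). Of the values of single named members under all alternatives, 2498 kept direction and call, 277 lost the call and 15 reversed.

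The letters A, B and C were treated as labels only, because the correlation of same-letter deviations over all genes tested was 0.203, 0.072 and 0.097 in Rh30 knockdown. Over genes with a mean count of at least 100 it was 0.598, 0.304 and 0.364, and each library correlated best with its own letter, so this decision depended on the genes used. Several count minimums were looked at, and the blocked counts had been seen in the same step. With the replicate block there were 61 higher and 1 lower in ES8 knockdown, 74 and 7 in Rh30 knockdown, and 26 lower in ES8 ΔRRM against knockdown.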
